A study of Mus musculus with 16 samples.

Results

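The genes described here encode the enzymes that carry glucose to pyruvate and lactate, admit pyruvate to the mitochondrion and run the pentose phosphate branch. The set was listed by gene name and not by a cutoff on measured values, although earlier results of these data were known, and holds 37 genes. They comprise 11 genes of hexokinase and upper glycolysis, 8 of lower glycolysis and lactate, 8 of the pyruvate dehydrogenase complex and its regulators, 7 of the pentose phosphate pathway, 2 phosphoglucomutases and Hif1a. All 37 were measured in both tables, out of 11171 genes in conventional CD4+ T cells and 11067 in regulatory T cells, 10774 of which were in both.

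RNA was sequenced from CD4+ T cells sorted out of spleen and lymph node into FOXP3+ regulatory cells (Treg) and FOXP3- conventional cells (Tcon). All mice were of the strain B6.Cg-Foxp3tm2Tch/J, in which a GFP reporter marks cells that express Foxp3, with the genotype given as WT. They received venetoclax, a small-molecule inhibitor of the survival protein BCL-2, at 50 mg/kg, or vehicle, in both cases for 14 days. The 4 groups were thus Treg of venetoclax mice, Treg of vehicle mice, Tcon of venetoclax mice and Tcon of vehicle mice, with 4 libraries each that the labels call biological replicates. The sources used here do not state age, sex, route or any pooling of animals.

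Glycolysis splits glucose into pyruvate and yields ATP without oxygen; lactate dehydrogenase then regenerates NAD+ by turning pyruvate into lactate. The pyruvate dehydrogenase complex instead converts pyruvate to acetyl-CoA for the mitochondrion, and pyruvate dehydrogenase kinases switch the complex off by phosphorylation. The pentose phosphate pathway branches off at glucose 6-phosphate and supplies NADPH and ribose. Resting T cells are known to run on little glycolysis, which rises steeply once they are activated, with MYC and HIF-1α among the transcription factors that drive its genes.

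Unless another scale is named, values are normalized counts, the reads of a gene after division by the size factor of its library, and changes are log2 of venetoclax over vehicle with a pseudocount of 1. Reads recovered for the genes in the tables came to between 21335006 and 25027038 per library, and the 37 genes together took 0.528% to 0.619% of them. Treg markers (Foxp3, Il2ra, Ikzf2, Ctla4 and Tnfrsf18) summed in Treg to 3880 to 4200 CPM (counts scaled so that each library has the same total) in venetoclax mice and 3420 to 3850 CPM in vehicle mice. In Tcon they summed to 156 to 190 CPM in venetoclax mice and 122 to 153 CPM in vehicle mice, so the sums did not overlap between treatments in either subset. Of these 5 genes Ikzf2 rose in Treg (0.29, limma adjusted p = 0.0172), and Il2ra (0.98, adjusted p = 0.00589) and Tnfrsf18 (0.46, adjusted p = 0.0382) rose in Tcon. Klrd1, an NK cell marker, fell in Tcon (-0.87, limma adjusted p = 0.0252), where the NK markers summed to 27.1 to 50.6 CPM in venetoclax mice and 36.1 to 53.6 CPM in vehicle mice. The other NK marker measured, Klrb1c, went the other way in Tcon without passing (0.15, limma adjusted p = 0.787). Tcon libraries numbered 3 stood apart on the second principal component (-24.6 in venetoclax and -29.7 in vehicle mice, the other 6 between 2.44 and 22.7). In Tcon 10 of 12 markers of cycling cells rose, their sum running from 411 to 509 CPM in venetoclax mice and from 295 to 339 CPM in vehicle mice. In Treg 1 of these markers rose (Tyms) and 1 fell (Pcna, the highest of the 12 there), with sums of 359 to 518 CPM in venetoclax mice and 362 to 461 CPM in vehicle mice. Counting changes of any size, 11 of the 12 were higher in Treg of venetoclax mice, 3 of them at an unadjusted limma p under 0.05. The part of these markers in the changes of the enzymes was not tested, and that of libraries numbered 3 was examined by leaving them out.

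In Treg 4 of the 37 genes rose (Hif1a, Pgam1, Pfkp and Rpe), 1 fell (Pdk1) and 32 did not pass limma's test at an adjusted p of 0.05. Over all 11067 genes 19.6% passed, 10.7% higher and 8.81% lower. Whether the share among the 37 genes differs from that was not tested. In Tcon 2 rose (Eno1 and Pgd), 1 fell (again Pdk1) and 34 did not pass, where 6.91% of all 11171 genes passed, 3.92% higher and 2.99% lower. At an unadjusted p under 0.05 there were 8 higher and 7 lower in Treg (33.3% of all genes) and 12 higher and 4 lower in Tcon (22.6% of all genes). Of the members that did not pass, 7 in Treg and 11 in Tcon passed in at least 1 of 17 alternatives. Some alternatives called more of all genes: in Tcon 1880 with the replicate block and 1371 by DESeq2, against 772 here. Others called fewer, such as 326 in Tcon with the Y-linked Ddx3y as a covariate. The share of all genes that gained a call in this way was not counted. The median change of the 37 genes was -0.04 in Treg and 0.10 in Tcon, beside 0.00477 and 0.00221 over all genes. Every venetoclax library lay above every vehicle library for 8 of the 37 in Treg (12% of all genes) and below for 4 (10.7% of all genes). In Tcon 11 were separated upward (8.78% of all genes) and 2 downward (7.47% of all genes). The count of members called in Treg was 3 without vehicle library 1, venetoclax library 2 or venetoclax library 4, 8 without vehicle library 2, and 2 without both libraries numbered 3. Upper-quartile scaling gave 2 higher and 4 lower in Treg, and 969 higher and 1348 lower over all genes, against 1189 higher and 975 lower with the deposited scaling. In Tcon the count was 1 without vehicle library 1 or 2 or venetoclax library 1, 2 or 3, 7 without vehicle library 3, and 9 without both libraries numbered 3. In sorted bulk samples fewer cells that express a gene and less of its RNA per cell cannot be told apart.

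**Figure D1:**
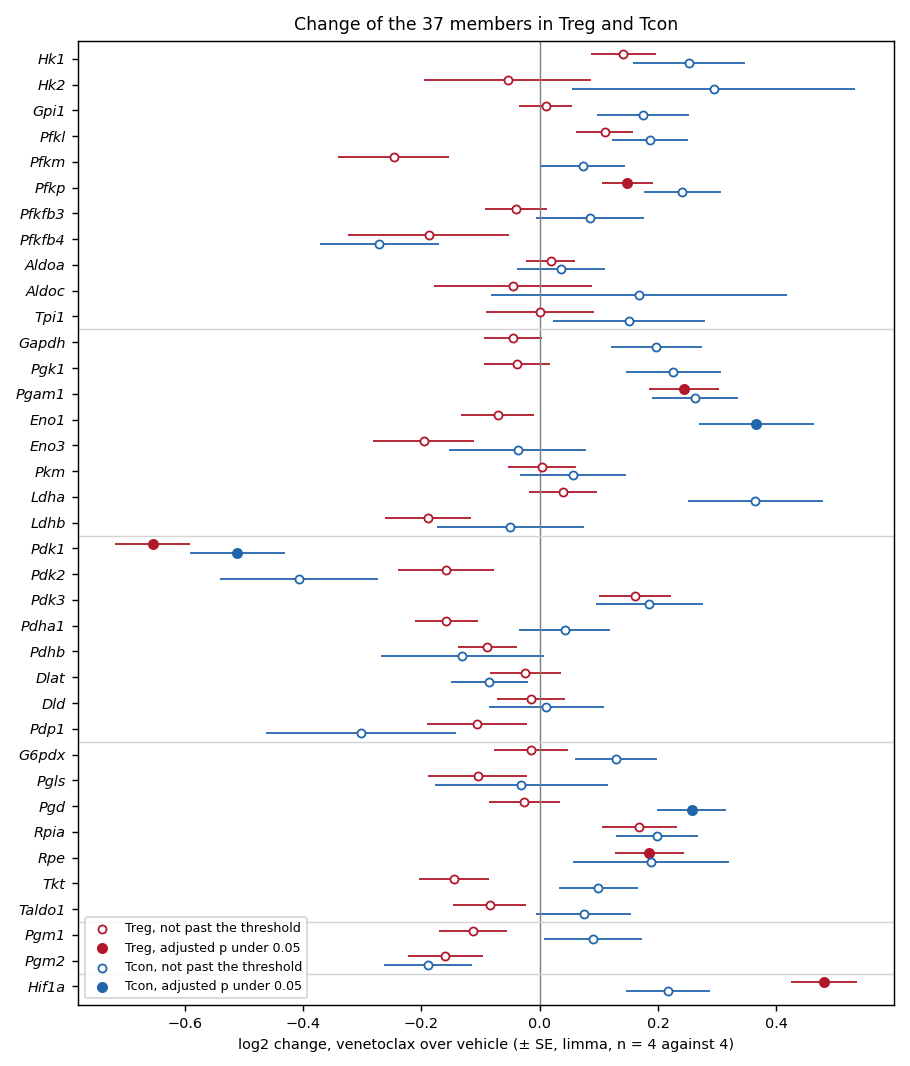
Log2 change of venetoclax over vehicle (x axis, ± SE from limma, 4 against 4 libraries) for each of the 37 genes, grouped by role from top to bottom, with Treg in red above Tcon in blue and filled points for an adjusted p under 0.05. Pdk1 lies at -0.65 in Treg and -0.51 in Tcon, and Hif1a at 0.48 in Treg and 0.22 in Tcon.

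Pdk1 was the member that passed in both subsets. It encodes pyruvate dehydrogenase kinase 1, which phosphorylates and inactivates the pyruvate dehydrogenase complex (Entrez 228026; chromosome 2, 71873215 to 71903858, GRCm38.p6). In Treg Pdk1 had 3301, 3717, 3355 and 3309.7 in venetoclax libraries 1 to 4, against 5587, 5678, 5577 and 4727 in vehicle libraries 1 to 4. No venetoclax library reached the lowest vehicle library, and the means were 3421 ± 199 in venetoclax mice and 5392 ± 446 in vehicle mice (SD, n = 4 each). The change was -0.65 (SE 0.06, 95% interval -0.79 to -0.52, limma adjusted p = 8.65e-05), which is 1.57-fold lower. In Tcon Pdk1 had 8414, 9116, 8136 and 9421 in venetoclax libraries 1 to 4, against 12338, 12897.5, 13430.5 and 11361 in vehicle libraries 1 to 4. Here too the groups did not overlap, with means of 8772 ± 598 in venetoclax mice and 12507 ± 884 in vehicle mice (SD, n = 4 each) and a change of -0.51 (SE 0.08, 95% interval -0.69 to -0.33, limma adjusted p = 0.00468). Pdk1 kept its call in all 17 alternative settings in each subset, between -0.72 and -0.63 in Treg and between -0.56 and -0.44 in Tcon. The fall in Treg and that in Tcon differed by -0.14 (SE 0.10, 95% interval -0.36 to 0.07, limma adjusted p = 0.737), so no difference between the subsets was shown.

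No other kinase of the family passed outside the alternatives. Pdk2 was separated downward in both subsets without passing: it had 304, 308, 310.2 and 319.7 in venetoclax libraries 1 to 4, against 386, 322, 335 and 345 in vehicle libraries 1 to 4 in Treg (change -0.16, limma adjusted p = 0.189). In Tcon Pdk2 had 181, 139.9, 164 and 196 in venetoclax libraries 1 to 4, against 259, 204, 205 and 234 in vehicle libraries 1 to 4 (change -0.41, limma adjusted p = 0.097). Among the alternatives Pdk2 passed in Tcon by DESeq2 and with the replicate block. Pdk3, an X-linked kinase of the same family, had 673, 650.2, 661 and 708 in venetoclax libraries 1 to 4, against 628, 598, 601 and 581 in vehicle libraries 1 to 4 in Treg. All Treg libraries of venetoclax mice lay above those of vehicle mice, with a change of 0.16 that missed the threshold (limma adjusted p = 0.0804), and in Tcon the change was 0.19 (adjusted p = 0.257) with overlapping libraries.

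The makeup of the kinase family was measured as each gene's share of the summed reads per kilobase of exon. Pdk1 held 59.1% ± 1.9 of the Pdk1, Pdk2 and Pdk3 sum in Treg of venetoclax mice and 70.2% ± 1.75 in Treg of vehicle mice (SD, n = 4 each). Its share in Tcon was 85.5% ± 1.08 with venetoclax and 89.4% ± 0.838 with vehicle. Pdk3 held 28.5% ± 1.51 in Treg of venetoclax mice and 19.3% ± 0.847 in Treg of vehicle mice, and in Tcon 10.7% ± 0.606 with venetoclax and 6.88% ± 0.549 with vehicle. The libraries of the treatment groups did not overlap for either gene in either subset. These shares were not tested, and without division by length Pdk1 held 77.6% (venetoclax) and 85% (vehicle) in Treg, and 93.4% and 95.3% in Tcon in the same order of treatment.

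**Figure D2:**
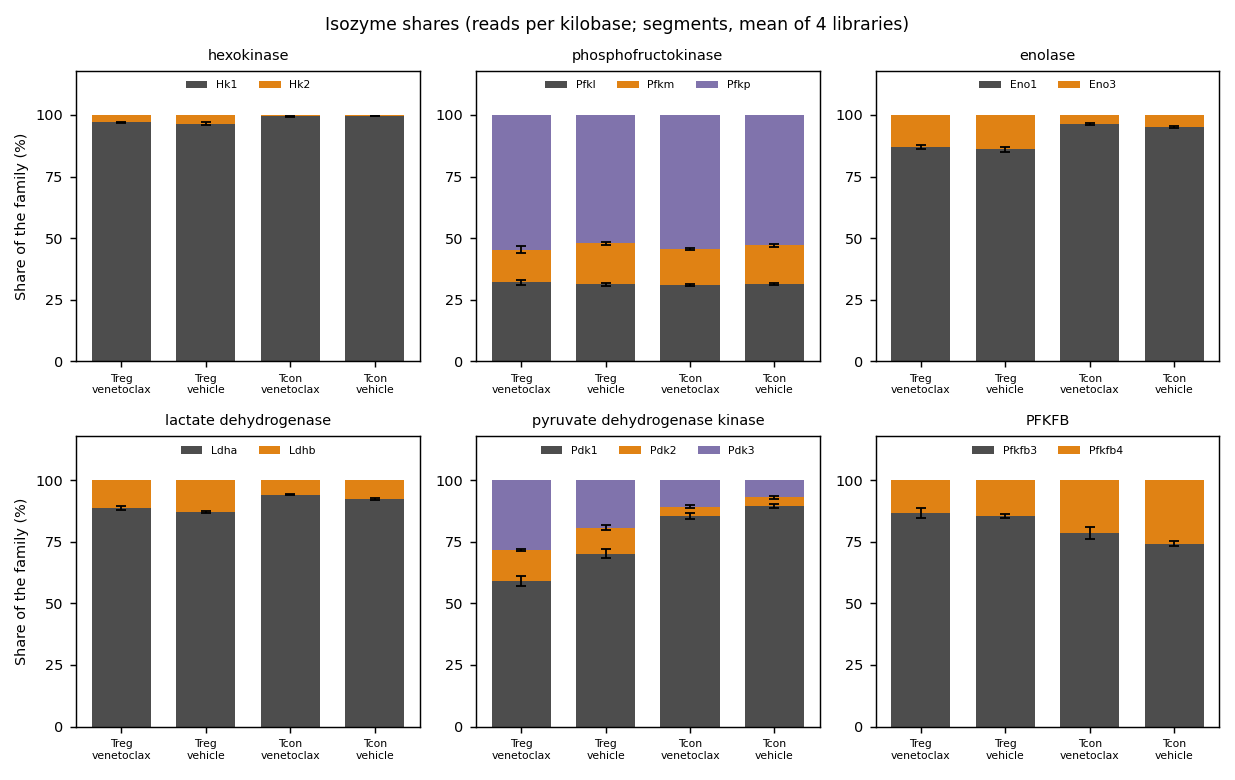
Share of each isozyme in the reads per kilobase of its family (y axis, percent; stacked segments are means of 4 libraries, error bars ± SD of the segment they close), with Treg bars left of Tcon bars and venetoclax left of vehicle in each. The Pdk1 segment covers 59.1% in Treg of venetoclax mice and 70.2% in Treg of vehicle mice, and the Hk2 segment is under 4% in each group.

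No subunit of the complex itself passed limma's test outside the alternatives. Pdha1, the E1α subunit that the kinases phosphorylate, had 4269.5, 4457, 4398 and 4298 in venetoclax libraries 1 to 4, against 4984, 4559.7, 5308 and 4617 in vehicle libraries 1 to 4 in Treg. Its venetoclax libraries all lay below the vehicle libraries, and the change of -0.16 (SE 0.05) missed the threshold with limma (adjusted p = 0.0522). It passed in 7 of 17 alternatives: by edgeR, by DESeq2, with TMM or upper-quartile scaling, with the replicate block, and without vehicle library 2 or 4. In Tcon the change of Pdha1 was 0.04, with overlap. The authors' deposited table gives Pdha1 an adjusted p of 0.033 in Treg. Pdha1 lies on the X chromosome and shares 21.2% of its exon bases with Map3k15 on the opposite strand, and the sources used here do not say whether counting used strand. Pdhb, the E1β subunit, Dlat (E2), Dld (E3) and Pdp1, the phosphatase that reactivates the complex, lay between -0.11 and -0.01 in Treg and between -0.30 and 0.01 in Tcon, none past the threshold.

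Hif1a, the oxygen-regulated subunit of HIF-1 (Entrez 15251; chromosome 12, 73901324 to 73947554), had the highest rise of the set in Treg. It had 10374, 9047, 9484 and 10206.5 in venetoclax libraries 1 to 4, against 6988, 7124, 6555 and 7328 in vehicle libraries 1 to 4. Each venetoclax library exceeded each vehicle library, with means of 9778 ± 622 in venetoclax mice and 6999 ± 327 in vehicle mice (SD, n = 4 each). The change was 0.48 (SE 0.06, 95% interval 0.36 to 0.60, limma adjusted p = 0.000193), which is 1.40-fold higher, and it passed in all 17 alternatives. In Tcon Hif1a had 4545, 3869.9, 4237 and 4606 in venetoclax libraries 1 to 4, against 3760.4, 3546, 3864 and 3648 in vehicle libraries 1 to 4. The groups again did not overlap, although venetoclax library 2 lay just above vehicle library 3, and the change of 0.22 (SE 0.07) did not pass (limma adjusted p = 0.0986). It passed by DESeq2 (0.0498), with the replicate block (0.0243) and without both libraries numbered 3 (0.0384). The authors' deposited table gives Hif1a an adjusted p of 0.0482 in Tcon. The difference between the changes was 0.26 (SE 0.09, 95% interval 0.08 to 0.45), with a limma adjusted p of 0.231. The deposited level of Hif1a holds all reads counted to it, and 6.06% of its exon bases are shared with Gm15283 on the other strand.

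The protein HIF-1α binds the core letters ACGTG or GCGTG, and Pdk1, Ldha, Eno1 and Pgam1 are known targets of it in mammals, so their promoters are shown together with that of Hif1a. Each line gives the 250 bases before the start that the RefSeq table lists (GRCm38.p6; for Pdk1, Hif1a and Ldha that start lies inside the gene span given here), 5′ to 3′ in the direction of the gene, and capitals mark ACGTG or GCGTG on either strand (also read as CACGT or CACGC).
Pdk1 chr2:71872974-71873223 (+ strand): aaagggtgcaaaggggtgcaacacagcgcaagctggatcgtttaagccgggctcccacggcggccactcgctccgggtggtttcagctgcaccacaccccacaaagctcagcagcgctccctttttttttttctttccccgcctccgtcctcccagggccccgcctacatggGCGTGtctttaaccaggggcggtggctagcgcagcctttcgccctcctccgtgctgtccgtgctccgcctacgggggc
Hif1a chr12:73907617-73907866 (+ strand): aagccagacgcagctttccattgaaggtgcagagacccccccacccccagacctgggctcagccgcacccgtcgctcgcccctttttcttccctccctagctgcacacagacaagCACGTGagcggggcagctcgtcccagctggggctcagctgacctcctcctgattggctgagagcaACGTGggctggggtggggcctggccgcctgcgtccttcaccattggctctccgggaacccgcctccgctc
Pgam1 chr19:41911621-41911870 (+ strand): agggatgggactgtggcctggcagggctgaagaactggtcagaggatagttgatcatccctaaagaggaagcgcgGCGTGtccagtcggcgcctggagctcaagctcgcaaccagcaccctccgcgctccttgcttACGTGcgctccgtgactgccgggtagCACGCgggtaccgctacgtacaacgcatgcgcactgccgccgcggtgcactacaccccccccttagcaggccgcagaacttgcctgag
Eno1 chr4:150236458-150236707 (+ strand): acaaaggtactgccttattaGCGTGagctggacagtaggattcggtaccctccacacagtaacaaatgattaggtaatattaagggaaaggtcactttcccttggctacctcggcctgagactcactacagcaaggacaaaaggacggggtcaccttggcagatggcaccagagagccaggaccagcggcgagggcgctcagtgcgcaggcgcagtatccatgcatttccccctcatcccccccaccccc
Ldha chr7:46845554-46845803 (+ strand): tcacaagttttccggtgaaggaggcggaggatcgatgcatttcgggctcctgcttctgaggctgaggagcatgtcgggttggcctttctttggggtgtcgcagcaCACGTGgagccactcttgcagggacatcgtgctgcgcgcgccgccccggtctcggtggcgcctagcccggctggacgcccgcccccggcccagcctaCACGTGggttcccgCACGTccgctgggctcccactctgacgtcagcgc
The Pdk1 window holds 1 GCGTG, and its first base lies 78 bases before the start. The Hif1a window holds ACGTG in 3 readings over both strands, 2 of which are the 2 strands of 1 CACGTG, the palindrome bound by MYC and MAX. The Ldha window holds ACGTG in 5 such readings and CACGTG at 2 places, whereas the Eno1 window holds 1 GCGTG and the Pgam1 window 1 ACGTG and 2 GCGTG. Of the 36 members with an entry, 28 (77.8%) held either core in this window, against 38.6% of all 27025 promoters and 57.6% of the 9237 promoters of genes in the tables. For ACGTG alone the share was 33.3%, against 22.2% for genes in the tables, and for CACGTG, which contains ACGTG on both strands, it was 11.1% against 8.42%. A match describes the letters only, and Pdk1, which fell, and Hif1a, which rose in Treg, both have one. The windows of Aldoa, Dlat, Dld, Gpi1, Hk1, Pkm, Rpe and Tpi1 hold neither core, and Rpe too rose in Treg.

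Upper glycolysis begins with the hexokinases, which trap glucose in the cell as glucose 6-phosphate. Hk1 (Entrez 15275; chromosome 10, 62268855 to 62379920), the constitutive hexokinase, had 5146, 4729, 4758 and 5214 in venetoclax libraries 1 to 4, against 4486, 4134, 4665 and 4719 in vehicle libraries 1 to 4 in Treg. The groups were separated by a small gap, and the change of 0.14 (SE 0.05) did not pass (limma adjusted p = 0.0869). In Tcon Hk1 had 4461, 4241.5, 4099 and 4443 in venetoclax libraries 1 to 4, against 3969, 3570.5, 2993 and 4035 in vehicle libraries 1 to 4, also without overlap, with a change of 0.25 (SE 0.09, limma adjusted p = 0.141). Hk2 (Entrez 15277; chromosome 6, 82725025 to 82774454), the inducible hexokinase of activated and tumour cells, had 167, 159.8, 195 and 197 in venetoclax libraries 1 to 4, against 162, 174, 168 and 252 in vehicle libraries 1 to 4 in Treg. Vehicle library 4 stood far above the other 7, and the change of -0.05 (SE 0.14) did not pass (limma adjusted p = 0.822). In Tcon Hk2 was near the bottom of the table, at 30.2, 21.4, 25.2 and 39.5 in venetoclax libraries 1 to 4, against 23.6, 20, 21.1 and 27.8 in vehicle libraries 1 to 4, with a change of 0.29 (SE 0.24, limma adjusted p = 0.526). Per length Hk2 made up 3.04% ± 0.317 of the Hk1 and Hk2 sum in Treg of venetoclax mice and 3.49% ± 0.653 in Treg of vehicle mice, and 0.577% ± 0.138 and 0.548% ± 0.0607 in Tcon of venetoclax and vehicle mice.

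Pfkp, the platelet-type subunit of phosphofructokinase, the committing step of glycolysis (Entrez 56421; chromosome 13, 6579874 to 6649060), rose in Treg. It had 3241, 3421, 3397 and 3298 in venetoclax libraries 1 to 4, against 2943, 3038, 3087 and 2987 in vehicle libraries 1 to 4, without overlap. The change was 0.15 (SE 0.04, limma adjusted p = 0.0294). That call was lost without vehicle library 1 (0.0832) or 4 (0.0514), venetoclax library 2 (0.0786), 3 (0.0743) or 4 (0.0589), with upper-quartile scaling (0.0693), with Ddx3y as a covariate (0.0852) and without both libraries numbered 3 (0.101). In Tcon Pfkp had 3379, 3446, 3390.1 and 3246 in venetoclax libraries 1 to 4, against 2835, 2981, 2598 and 2991 in vehicle libraries 1 to 4, again without overlap, and a change of 0.24 (SE 0.07) that just missed the threshold (limma adjusted p = 0.0522). Pfkp passed in Tcon in 5 of 17 alternatives: by DESeq2, with a mean of at least 50, with the replicate block, and without vehicle library 3 or both libraries numbered 3. The authors' deposited table gives Pfkp an adjusted p of 0.0104 in Tcon. Pfkp shares 17.4% of its exon bases with Pitrm1 on the opposite strand. The liver subunit Pfkl was also separated upward in both subsets without passing (0.11 in Treg, adjusted p = 0.124; 0.19 in Tcon, adjusted p = 0.113). The muscle subunit Pfkm had a change of -0.25 in Treg (adjusted p = 0.0794) and 0.07 in Tcon (adjusted p = 0.611), and its share of the phosphofructokinase sum per length was 13.3% ± 1.48 in Treg of venetoclax mice and 16.6% ± 0.575 in Treg of vehicle mice.

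The other 6 genes of upper glycolysis did not pass in either subset, so that 1 of the 11 rose in Treg and none passed in Tcon, where 5 had an unadjusted p under 0.05. Gpi1 (glucose 6-phosphate isomerase), Aldoa and Aldoc (aldolases) and Tpi1 (triosephosphate isomerase) lay between -0.05 and 0.02 in Treg and between 0.04 and 0.17 in Tcon. Pfkfb3 and Pfkfb4 make and break down fructose 2,6-bisphosphate, the activator of phosphofructokinase. Pfkfb3 changed by -0.04 in Treg and 0.08 in Tcon, and Pfkfb4 by -0.19 in Treg and -0.27 in Tcon (adjusted p = 0.358 and 0.142).

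Pgam1, phosphoglycerate mutase (Entrez 18648; chromosome 19, 41911871 to 41918665), rose in Treg. It had 2039, 1897, 2068 and 2049 in venetoclax libraries 1 to 4, against 1752, 1569.8, 1628 and 1859 in vehicle libraries 1 to 4. The venetoclax libraries all exceeded the vehicle libraries, the closest pair being venetoclax library 2 and vehicle library 4, and the means were 2013 ± 78.4 in venetoclax mice and 1702 ± 129 in vehicle mice (SD, n = 4 each). The change was 0.24 (SE 0.06, limma adjusted p = 0.0121), and of 17 alternatives leaving out both libraries numbered 3 ended the call (0.0875). In Tcon Pgam1 had 2125, 1877, 2257 and 1963 in venetoclax libraries 1 to 4, against 1792, 1678, 1639 and 1734 in vehicle libraries 1 to 4, without overlap, and its change of 0.26 (SE 0.07) fell just short of the threshold (limma adjusted p = 0.0566). Pgam1 passed in Tcon in 2 of 17 alternatives, by DESeq2 and with the replicate block. The authors' deposited table gives Pgam1 an adjusted p of 0.0187 in Tcon. The difference between the subsets was -0.02 (SE 0.09, 95% interval -0.21 to 0.18).

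Eno1, enolase 1 (Entrez 13806; chromosome 4, 150236708 to 150248879), rose in Tcon. It had 16665, 17223, 20413 and 15362 in venetoclax libraries 1 to 4, against 14107, 12576, 14115 and 13035.5 in vehicle libraries 1 to 4. Every venetoclax library exceeded every vehicle library, and venetoclax library 3 was the highest of the 8. The change was 0.37 (SE 0.10, 95% interval 0.15 to 0.58, limma adjusted p = 0.0479), which is 1.29-fold. The call was lost without vehicle library 1 (0.0884), 2 (0.127) or 4 (0.1) and without venetoclax library 1 (0.118), 2 (0.112) or 3 (0.0891), with edgeR on the recovered reads (0.0559), with TMM (0.0547) and upper-quartile scaling (0.0555), and with the Y-linked Ddx3y level as a covariate (0.181). In Treg Eno1 had 12428, 12465, 13192 and 12664.5 in venetoclax libraries 1 to 4, against 13141, 12103, 15041.5 and 13185 in vehicle libraries 1 to 4, with overlapping groups and a change of -0.07 (SE 0.06, limma adjusted p = 0.451). Eno1b, a near-identical copy of Eno1 elsewhere in the genome, changed alike in Tcon (0.39, SE 0.09, limma adjusted p = 0.0337), at 1202 ± 130.2 in venetoclax mice and 916 ± 81.8 in vehicle mice (SD, n = 4 each). The Eno1b call was lost in 6 of 17 alternatives: without vehicle library 2 (0.0924) or 4 (0.0767), venetoclax library 1 (0.0974), 2 (0.0615) or 3 (0.0728), and with Ddx3y as a covariate (0.102). The sources used here do not say how reads were divided between the copies, so the value of Eno1 is uncertain to that extent.

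Ldha, which makes lactate from pyruvate (Entrez 16828; chromosome 7, 46842274 to 46855627), had 14344.5, 13474, 17494 and 13591 in venetoclax libraries 1 to 4, against 11460.2, 10183, 13560.3 and 10582.5 in vehicle libraries 1 to 4 in Tcon. Vehicle library 3 reached into the venetoclax range, and the change of 0.36 (SE 0.11, 95% interval 0.11 to 0.62) did not pass (limma adjusted p = 0.0843); it passed without vehicle library 3 (0.0124), without both libraries numbered 3 (0.0023), with the replicate block (0.00106) and by DESeq2 (0.0368). The authors' deposited table gives Ldha an adjusted p of 0.0344 in Tcon. In Treg Ldha had 11479.6, 11076, 11733 and 11657 in venetoclax libraries 1 to 4, against 11489, 9982, 11968 and 11353 in vehicle libraries 1 to 4, with overlap and a change of 0.04 (SE 0.06, limma adjusted p = 0.669). Ldhb, whose product favours the return from lactate to pyruvate, changed by -0.19 in Treg (adjusted p = 0.081) and -0.05 in Tcon (adjusted p = 0.865). Per length Ldhb held 5.82% ± 0.148 of the Ldha and Ldhb sum in Tcon of venetoclax mice and 7.61% ± 0.283 in Tcon of vehicle mice, with no overlap between libraries. In Treg its share was 11.2% ± 0.674 with venetoclax and 12.9% ± 0.578 with vehicle, with overlap.

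Pkm, the pyruvate kinase of T cells (Entrez 18746; chromosome 9, 59656576 to 59679372), had 16799, 16796, 16428.5 and 17661 in venetoclax libraries 1 to 4, against 16553, 15512, 18355 and 17203 in vehicle libraries 1 to 4 in Treg. The groups overlapped, and the change was 0.0035 (SE 0.06, limma adjusted p = 0.975). In Tcon Pkm had 16731, 16465, 18689 and 16671 in venetoclax libraries 1 to 4, against 16443, 15178.5, 18799.5 and 15632.5 in vehicle libraries 1 to 4, with overlap and a change of 0.06 (SE 0.09, limma adjusted p = 0.778). Gene counts do not tell its M1 and M2 isoforms apart. Gapdh and Pgk1, the enzymes between Tpi1 and Pgam1, were separated upward in Tcon without passing (0.20, adjusted p = 0.16, and 0.23, adjusted p = 0.126) and overlapped in Treg (-0.05 and -0.04). Eno3, the muscle enolase, changed by -0.20 in Treg (adjusted p = 0.125) and -0.04 in Tcon.

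**Figure D3:**
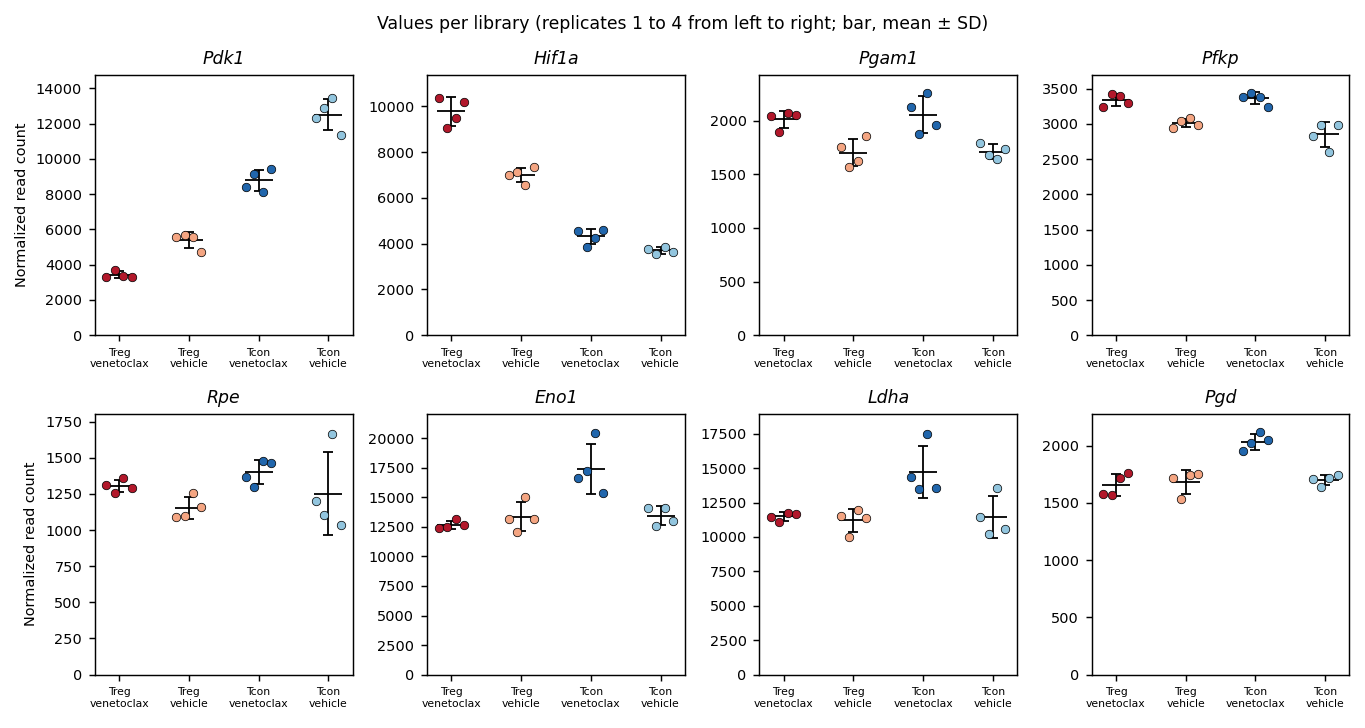
Normalized read counts (y axis, from 0) of 8 genes in each library, with Treg left of Tcon and venetoclax left of vehicle; points are replicates 1 to 4 from left to right and bars are the mean ± SD. Pdk1 is at 3301 to 3717 in Treg of venetoclax mice and 4727 to 5678 in Treg of vehicle mice, and Hif1a at 9047 to 10374 in Treg of venetoclax mice and 6555 to 7328 in Treg of vehicle mice.

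G6pdx, the glucose 6-phosphate dehydrogenase that opens the pentose phosphate pathway (Entrez 14381; chromosome X, 74409483 to 74428880), did not pass in either subset. In Treg G6pdx had 1068, 1072.5, 1099.5 and 1175 in venetoclax libraries 1 to 4, against 1126, 1029.9, 1217 and 1092 in vehicle libraries 1 to 4. The groups overlapped (change -0.01, SE 0.06, limma adjusted p = 0.894). In Tcon it had 1080.1, 1016, 1166 and 1087 in venetoclax libraries 1 to 4, against 1039, 973, 940.4 and 1022 in vehicle libraries 1 to 4, again with overlap (0.13, SE 0.07, limma adjusted p = 0.307).

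Pgd, the second NADPH-producing dehydrogenase of the branch (Entrez 110208; chromosome 4, 149149991 to 149166705), rose in Tcon, where it had 1951, 2020.2, 2121 and 2049 in venetoclax libraries 1 to 4, against 1706, 1637, 1721 and 1745 in vehicle libraries 1 to 4. The groups were well apart and tight, with means of 2035 ± 70.5 in venetoclax mice and 1702 ± 46.3 in vehicle mice (SD, n = 4 each) and a change of 0.26 (SE 0.06, 95% interval 0.13 to 0.39, limma adjusted p = 0.0256). The call was lost without vehicle library 1 (0.0653) or 2 (0.0815), without venetoclax library 1 (0.0684), 2 (0.072), 3 (0.0663) or 4 (0.0684), and with Ddx3y as a covariate (0.0763). In Treg Pgd had 1578, 1574, 1715 and 1759 in venetoclax libraries 1 to 4, against 1721, 1531, 1741 and 1757 in vehicle libraries 1 to 4, with overlap and a change of -0.03 (SE 0.06, limma adjusted p = 0.797). Labels give no sex. The Y-linked Ddx3y read 0.988 normalized counts or fewer in venetoclax library 4 and in vehicle libraries 1, 3 and 4 of both subsets. In the other 8 libraries it read 1468 to 6674. Most libraries on the high side were of venetoclax mice and most on the low side of vehicle mice, so the treatments were not balanced for it.

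Rpe, the ribulose phosphate epimerase of the non-oxidative branch (Entrez 66646; chromosome 1, 66700797 to 66719805), rose in Treg. It had 1312, 1259, 1363 and 1289.5 in venetoclax libraries 1 to 4, against 1088, 1099, 1255 and 1160.1 in vehicle libraries 1 to 4. The lowest venetoclax library was barely above vehicle library 3, and the change was 0.18 (SE 0.06, limma adjusted p = 0.0411). This call was lost without vehicle library 1 (0.116), 2 (0.0814) or 4 (0.0549), without venetoclax library 1 (0.0905), 2 (0.0517), 3 (0.106) or 4 (0.0729), with upper-quartile scaling (0.0702), with Ddx3y as a covariate (0.0665) and without both libraries numbered 3 (0.0624). Of its exon bases 16.3% are shared with Kansl1l on the opposite strand. In Tcon Rpe had 1367, 1302, 1479.8 and 1467 in venetoclax libraries 1 to 4, against 1205, 1104, 1668 and 1034 in vehicle libraries 1 to 4, where vehicle library 3 exceeded all others (0.19, SE 0.13, limma adjusted p = 0.449).

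Rpia, the isomerase beside Rpe, was separated upward in both subsets without passing (0.17 in Treg, adjusted p = 0.0781; 0.20 in Tcon, adjusted p = 0.115). Tkt and Taldo1, the transketolase and transaldolase that link the branch back to glycolysis, changed by -0.14 and -0.08 in Treg and by 0.10 and 0.07 in Tcon, and Pgls, the lactonase, by -0.10 in Treg and -0.03 in Tcon, none of them past the threshold. For the phosphoglucomutases, the symbols Pgm1 (Entrez 66681) and Pgm2 (Entrez 72157) in these tables stand opposite to RefSeq. RefSeq names the first Pgm2 and the second Pgm1, and the second joins glycogen to glycolysis. Pgm1 changed by -0.11 in Treg and 0.09 in Tcon, and Pgm2 by -0.16 in Treg and -0.19 in Tcon. Neither passed.

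**Figure D4:**
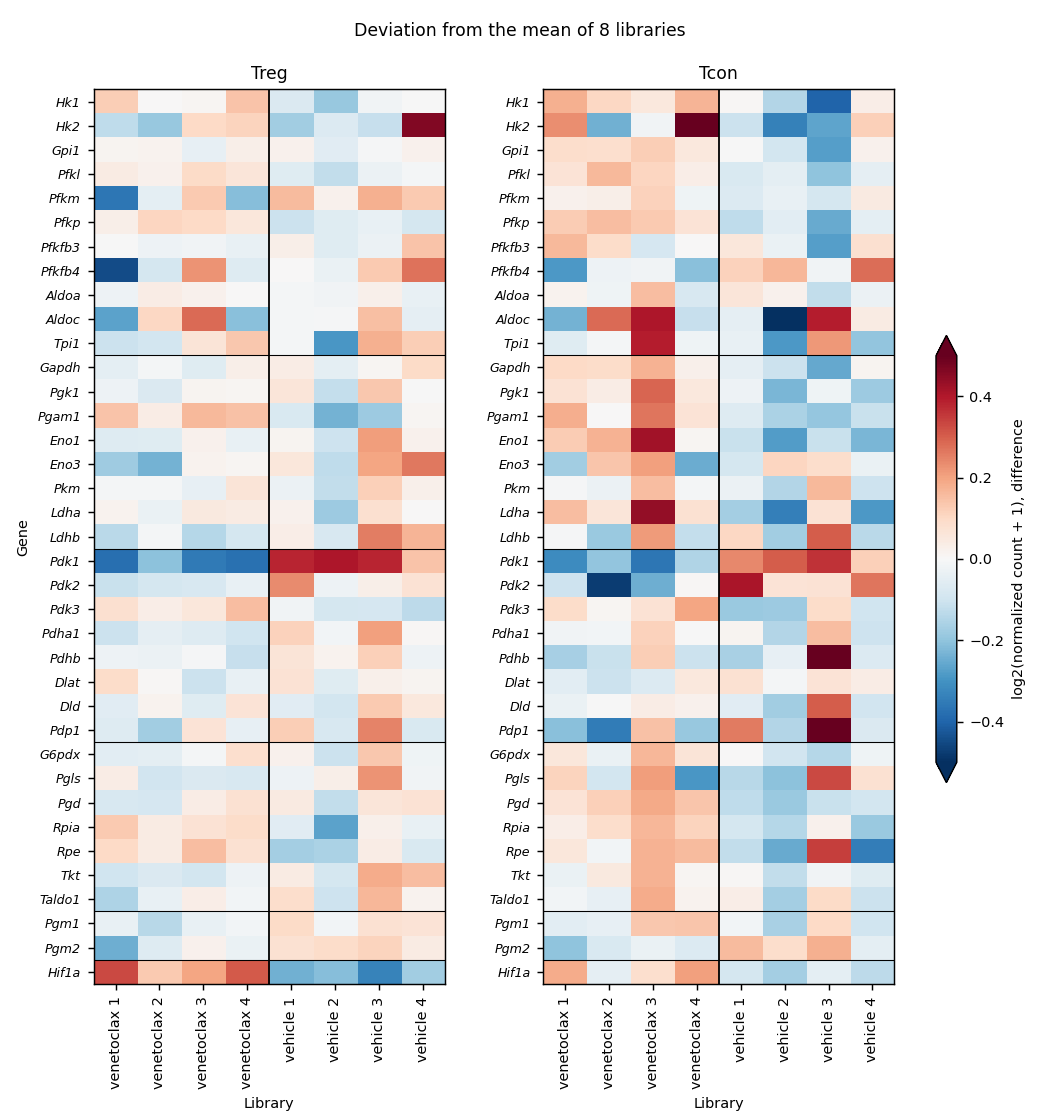
Deviation of each of the 37 genes (rows, by role) from its mean over 8 libraries, on the scale of log2(normalized count + 1), in Treg (left) and Tcon (right), with venetoclax libraries left of vehicle libraries. Venetoclax library 3 of Tcon is the highest of its group for 26 of the 37 genes, and vehicle library 2 of Treg the lowest of its group for 26.

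Within some groups 1 library held the extreme value for many of the genes. In Tcon of venetoclax mice, library 3 was the highest of the 4 for 26 of the 37 genes, compared with 34% of all genes, and in Tcon of vehicle mice library 3 was the highest for 20, compared with 34.4%. That vehicle library 3 was also the lowest for 11 (37.3% of all genes), and vehicle library 2 of Tcon was the lowest for 19 (22.5% of all genes). In Treg of venetoclax mice no library was the highest for more than 14 genes (library 3, 24.5% of all genes) or the lowest for more than 15 (library 2, 25.9%). In Treg of vehicle mice library 3 was the highest for 21 (27.3% of all genes) and library 2 the lowest for 26 (29.6%). The cause was not tested.

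The test of the difference in response asked whether these genes answered differently in Treg and in Tcon. Of the 37 none passed limma's test over the 10774 shared genes, 1.3% of which did (0.334% higher and 0.965% lower in Treg), and edgeR called none either; 10 had an unadjusted p under 0.05 (10.1% of all genes). Hif1a was the one whose change was higher in Treg. The 9 with a lower change in Treg were Eno1 (-0.44, SE 0.12, limma adjusted p = 0.0829), Pgd (-0.28, adjusted p = 0.108), Gapdh (-0.24), Tkt (-0.24), Pgk1 (-0.26), Pfkm (-0.32), Ldha (-0.32), Pdha1 (-0.20) and Pgm1 (-0.20). Treg and Tcon libraries share the codes VEH1 to VEH4 and ABT1 to ABT4, and libraries of the same code deviated together in all 8 pairs (correlations 0.2 to 0.551). With the code as a block 3 of the 37 passed, all lower in Treg (Eno1, Pgk1 and Pgd), where 389 of all 10774 genes (3.61%) passed. Eno1 alone passed without Tcon vehicle library 3 or Tcon venetoclax library 4, and Pgd alone without Treg vehicle library 2. The median difference was -0.12 over the 37 genes, beside 0.00466 over all shared genes.

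Isozymes stood at different levels in the 2 subsets. Levels of Treg and Tcon were set side by side in CPM with no test, since each table was normalized on its own. In vehicle mice every Treg library lay above every Tcon library for 13 of the 37 genes and below for 4, against 24.5% and 12% of all shared genes. In venetoclax mice 13 lay above and 10 below, against 30.2% and 18.3%. Hk2 was 8.14-fold higher in Treg of vehicle mice (7.95 ± 1.77 CPM in Treg and 0.977 ± 0.161 CPM in Tcon; SD, n = 4 each). Eno3 was 3.22-fold higher, at 56.2 ± 6.16 CPM in Treg and 17.5 ± 1.18 CPM in Tcon. Aldoc was 2.61-fold higher (Treg 6.09 ± 0.319 CPM, Tcon 2.33 ± 0.63 CPM) and Ldhb 1.76-fold higher (Treg 48.1 ± 4.41 CPM, Tcon 27.3 ± 3.28 CPM). The libraries of the subsets did not overlap for any of these 4 genes. Hif1a stood at 295 ± 16.1 CPM in Treg and 156 ± 2.73 CPM in Tcon.

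In the other direction, Pdk1 stood at 227 ± 19.4 CPM in Treg and 527 ± 30.3 CPM in Tcon of vehicle mice, 2.32-fold lower in Treg. Pfkfb4 was 1.98-fold lower in Treg (Treg 8.01 ± 0.738 CPM, Tcon 15.9 ± 1.86 CPM), and Pdhb (Treg 90.1 ± 3.39 CPM, Tcon 110.4 ± 21.5 CPM) and Aldoa (Treg 269 ± 3.71 CPM, Tcon 316 ± 27.4 CPM) were the other 2 below. In venetoclax mice Eno1, Ldha, Pgk1, Pgd, Taldo1 and Pgm1 joined these 4 on the lower side. Eno1 was then at 540 ± 17.9 CPM in Treg and 739 ± 79.6 CPM in Tcon, whereas in vehicle mice it was at 563 ± 45.1 CPM in Treg and 567 ± 22.7 CPM in Tcon with overlap. Hif1a was 2.27-fold higher in Treg of venetoclax mice (Treg 416 ± 27 CPM, Tcon 183 ± 15.5 CPM) and Pdk1 2.56-fold lower (Treg 146 ± 8.16 CPM, Tcon 373 ± 30.6 CPM).

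**Figure D5:**
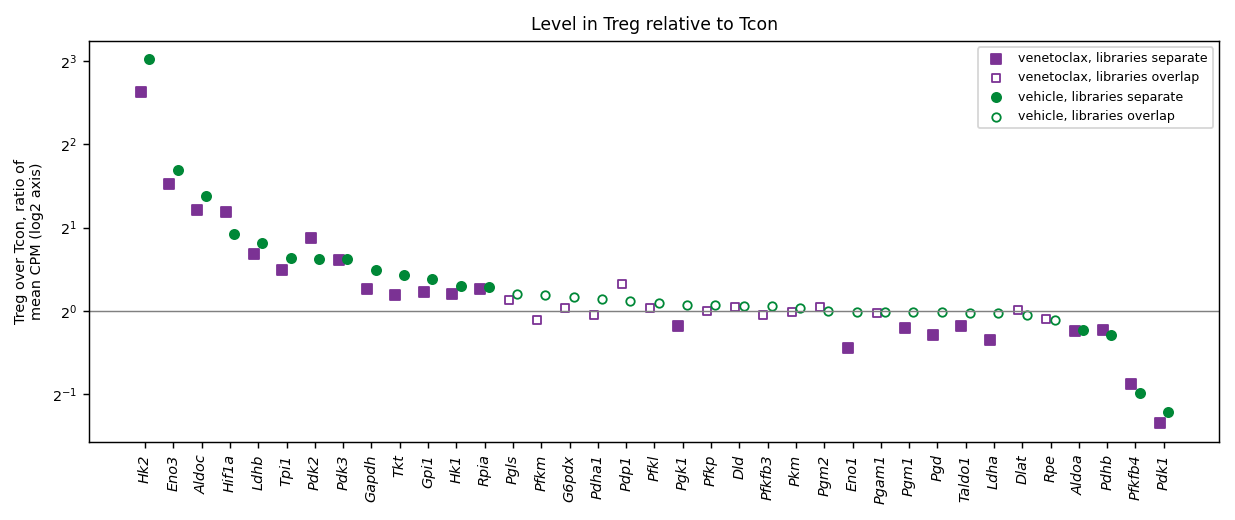
Ratio of the mean CPM in Treg to that in Tcon (y axis, log2 scale) for the 37 genes in venetoclax mice (squares, left) and vehicle mice (circles, right), filled where all 4 Treg libraries lie on one side of all 4 Tcon libraries. In vehicle mice the ratio runs from 8.14 for Hk2 to 0.431 for Pdk1.

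Levels between genes can be compared only per length, as RPKM (CPM per kilobase of exon). In Treg of vehicle mice Gapdh was the highest at 374 ± 14.9 RPKM (SD, n = 4), followed by Pkm (274 ± 16.2), Ldha (249 ± 16.9) and Eno1 (221 ± 17.7). Gapdh stood clear of the other 3 there, while Pkm and Ldha, and Ldha and Eno1, overlapped. In Tcon of vehicle mice the same 4 led with Pkm (267 ± 15.2) and Gapdh (266 ± 29) apart by less than their spread, then Ldha (254 ± 23) and Eno1 (223 ± 8.91). In Tcon of venetoclax mice Ldha (329.6 ± 37.2), Gapdh (306 ± 8.56), Eno1 (290.1 ± 31.3) and Pkm (279.9 ± 13.2) stood in that order, each within the spread of its neighbour. The lowest in all 4 groups was Hk2, at 1.36 ± 0.156 and 1.42 ± 0.315 RPKM in Treg of venetoclax and vehicle mice and 0.22 ± 0.0618 and 0.174 ± 0.0287 RPKM in Tcon of venetoclax and vehicle mice.

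Neighbouring lists are read against the 19.6% of all genes that passed in Treg and the 6.91% in Tcon. Of the glucose and lactate transporters 1 of 10 measured rose and 1 fell in Treg, and none of 11 passed in Tcon, where 1 had an unadjusted p under 0.05. Slc2a1, which encodes the glucose transporter GLUT1, fell in Treg to 816 ± 56.5 in venetoclax mice, against 1028 ± 34.2 in vehicle mice (SD, n = 4 each; change -0.33, SE 0.06, limma adjusted p = 0.00322). Slc16a3, the lactate exporter MCT4, rose to 356 ± 43.3 in venetoclax mice, against 274 ± 15.2 in vehicle mice (0.37, SE 0.10, limma adjusted p = 0.0191), a call lost without venetoclax library 1 (0.0538), 3 (0.0571) or 4 (0.058) and without both libraries numbered 3 (0.105). Of 34 measured other isozymes and side branch genes 3 fell in Treg, Shpk, Bpgm and Galk1, and limma called none in Tcon (5 at an unadjusted p under 0.05). Shpk, which encodes sedoheptulokinase, fell by 0.48 (SE 0.11, limma adjusted p = 0.00959). Bpgm, which diverts 1,3-bisphosphoglycerate, fell by 0.27 (SE 0.07, limma adjusted p = 0.0137), a call lost without both libraries numbered 3 (0.081). The call of Galk1, galactokinase (-0.37, SE 0.11, limma adjusted p = 0.0314), was lost in 7 of 17 alternatives: without vehicle library 1 (0.0675) or 3 (0.0941), venetoclax library 1 (0.0847), 2 (0.0756) or 3 (0.062), both libraries numbered 3 (0.151), and with Ddx3y as a covariate (0.152). None of the 15 tricarboxylic acid cycle genes passed in either subset (5 in Treg and 0 in Tcon at an unadjusted p under 0.05).

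Among genes of the HIF pathway and its targets, 2 of 18 rose in Treg and none fell, while 2 of 20 rose and 1 fell in Tcon. At an unadjusted limma p under 0.05 there were 4 higher and 0 lower in Treg, and 3 higher and 4 lower in Tcon. Counting changes of any size, 7 of the 18 were higher in Treg (median -0.00883) and 8 of the 20 in Tcon (median -0.0553). P4ha1, a prolyl hydroxylase of collagen and a HIF-1 target, rose in both, with 3552 ± 513 in venetoclax mice and 2523 ± 173 in vehicle mice for Treg (0.48, SE 0.09, limma adjusted p = 0.00216). In Tcon P4ha1 had 2283 ± 315 in venetoclax mice and 1226 ± 48.8 in vehicle mice (0.89, SE 0.10, limma adjusted p = 0.000801). The other rise in both was Ddit4, an inhibitor of mTORC1 (1.16 in Treg and 1.57 in Tcon), and the fall was Epas1, which encodes HIF-2α (-0.59 in Tcon, limma adjusted p = 0.0369), lost in 7 of 17 alternatives. Of 19 measured growth regulators of glycolysis 3 rose and 1 fell in Treg. Irf4, a transcription factor induced by T cell receptor signals, rose to 3412 ± 301 in venetoclax mice, against 2241 ± 232 in vehicle mice (0.61, SE 0.08, limma adjusted p = 0.000313), and Mlxip, the glucose sensor MondoA, rose by 0.35 (adjusted p = 0.00511). Max, the partner of MYC, rose by 0.16 (adjusted p = 0.0401), a call lost in 10 of 17 alternatives. Foxo1, which restrains growth in resting T cells, fell in Treg (-0.36, SE 0.06, limma adjusted p = 0.00122). In Tcon it was the only one of the 19 to pass (-0.49, SE 0.12, limma adjusted p = 0.0353), and that call was lost in 7 of 17 alternatives.

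The authors' deposited table, with its own test, puts 6 of the 37 genes past an adjusted p of 0.05 in Treg (4 higher and 2 lower), against 20.5% of all genes. In Tcon the authors' deposited table puts 7 past it (6 higher and 1 lower), against 11.3% of all genes.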

How the data were processed

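RNA was extracted with RNeasy and sequenced on a NovaSeq, per the labels' protocols, from 16 libraries in 4 groups. HISAT2, SAMtools and the build mm10 are named in the submitters' processing notes, without versions; the sources used here do not state the counting tool or its strand setting. The values are counts divided by size factors (unit signal), made by the authors and deposited as 1 table per subset. All values in each column were whole multiples of 1 step (tolerance 0.01), so the reads of the genes in each table could be recovered. The deposited tables also hold the authors' log2 fold changes and adjusted p-values, which were read for side by side values only. Repeated lines (40 in Tcon, 43 in Treg) were dropped.

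Log2(normalized count + 1) was fitted with limma 3.58.1 (empirical Bayes, mean-dependent prior, R 4.3.3), within each subset and as an interaction, and p-values were adjusted by Benjamini-Hochberg over all genes of the fit. The code was tested on simulated data. Alternatives were edgeR 4.0.16 and DESeq2 1.42.0 on recovered reads, other scalings, a pseudocount of 5, a mean of at least 50, a replicate block, Ddx3y as a covariate and leaving out libraries. Treg and Tcon libraries of the same code correlated over 0.1 in all 8 pairs, the codes being shared in the labels' titles. The p-values measure the spread between the 4 libraries of a group. CPM and RPKM were computed from recovered reads, with merged exon lengths from GENCODE vM21. Their totals cover only the genes in the table of each subset, which are not all the same genes. Promoters were from RefSeq, matched by gene ID for 36 of 37 genes, and the most upstream start listed for each gene was used.

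Genes given with every library's value were those past the threshold plus Hk1, Hk2, Ldha, Pkm, G6pdx, Pdk1 and Hif1a; Pdk2, Pdk3 and Pdha1 were added after their values were seen. The members and lists were chosen with earlier results of these data known.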

Additional observations from a re-analysis of the deposited data

Results flagged for a closer look

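In 148 groups of 4 libraries (37 genes in 4 groups), 11 had 1 library far from the other 3, where chance gives about 1 in 20 groups. Tcon venetoclax library 3 was the high one for Tpi1 (1328.64 normalized counts, the others 971 to 1005.5), Pgk1 (5726, the others 4801 to 4919), Pkm (18689, the others 16465 to 16731) and Pdha1 (4836, the others 4414 to 4461). Tcon vehicle library 3 was high for Pdhb (3562, the others 2208 to 2399).

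In Treg, venetoclax library 2 was high for Pdk1 (3717, the others 3301 to 3355) and low for Pgam1 (1897, the others 2039 to 2068), and venetoclax library 1 was high for Pgls (340.3, the others 310.4 to 315). Vehicle library 4 was low for Pdk1 (4727, the others 5577 to 5678) and high for Hk2 (251.8, the others 162 to 174), and vehicle library 2 was low for Pgd (1531, the others 1721 to 1757). The cause of these values was not tested.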

How the results depend on the processing

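Single genes were followed through the alternatives for Hk1, Hk2, Ldha, Pkm, Pdk1, G6pdx and Hif1a in each comparison. The other called members were followed in the subset that called them. Among these, 409 alternative values kept their direction and side of the threshold, 36 lost their call, 9 gained one and 14 changed sign. Gains of other members, such as Pdha1 in Treg and Pfkp in Tcon, are not in these counts. In Tcon the number of genes called, 772 with 3 members, was 1371 with 8 members by DESeq2, 326 with 1 member with Ddx3y as a covariate and 1443 with 9 members without both libraries numbered 3. Leaving out single libraries gave 306 to 1244 genes and 1 to 7 members. In Treg 2164 genes and 5 members became 1028 and 2 without both libraries numbered 3, and single libraries gave 1327 to 2198 genes and 3 to 8 members. For the difference, single libraries gave 58 to 203 genes and 0 to 1 members.

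With the replicate block, Tcon had 1880 genes and 12 members, Treg 2467 genes and 8 members, and the difference 389 genes and 3 members. Venetoclax and vehicle libraries share only a number: those numbered 1 correlated at 0.0735 in Tcon and -0.015 in Treg, the other same-numbered pairs at 0.178 to 0.43.

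The 14 changes of sign were all in Treg genes that never passed. Pkm was -0.00487 by edgeR, -0.00214 by DESeq2, -0.00295 with TMM, -0.0266 with upper-quartile scaling, and -0.00575, -0.037 and -0.0173 without vehicle library 1, vehicle library 2 and venetoclax library 4. Without single libraries Pkm ran from -0.037 to 0.0439, Ldha from -0.0146 to 0.0727, Hk2 from -0.121 to 0.0914 and G6pdx from -0.0524 to 0.0279. Ldha was -0.0146 without vehicle library 2. Hk2 was 0.0272 with Ddx3y and 0.0914 without vehicle library 4. G6pdx was 0.0494 with Ddx3y, 0.0293 without both libraries numbered 3, 0.0279 without vehicle library 3 and 0.00102 without venetoclax library 1.

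Isozyme shares without division by length (Treg venetoclax, Treg vehicle, Tcon venetoclax, Tcon vehicle) were 77.6%, 85%, 93.4% and 95.3% for Pdk1, 8.39%, 9.08%, 2.28% and 2.996% for Eno3, and 8.02%, 9.26%, 4.08% and 5.36% for Ldhb; Hk2 was 3.5% in Treg of venetoclax mice and 0.633% in Tcon of vehicle mice. The cause of these shifts, beyond the construction of the alternative, was not tested. Hk2 in Tcon rests on 39.5 normalized counts or fewer, which limits its precision.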
